A study of Rattus norvegicus with 6 samples.

Results

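Promoter sites were taken as the accessible chromatin sites (ACS) that the deposited table places in its TSS class, meaning that the site lies within 1 kb of the start of the nearest gene. After rows repeated for the same interval were merged, the table held 101603 distinct ACS, of which 11055 had a TSS listing. The 16 that were listed with 2 different genes were left out, and the other 11039 sites, at 9783 genes, are described here. Their median width was 668 bp (range 202 to 2714 bp), and 8555 of them overlapped the annotated gene start itself. Libraries came from dissociated pancreatic islet cells of Sprague-Dawley rats. Adult islets were from 3 male rats of about 90 days (replicates 4, 5 and 6), and P10 islets from pups of both sexes at postnatal day 10, each library being a mix of a few pups from 1 of 3 litters (replicates 1, 2 and 3). The labels give no genotype or treatment beyond age. Islet isolation differed as well, since pooled P10 pancreases were shaken by hand in collagenase while adult pancreases were injected with it through the duct and digested for longer. Age, sex composition, pooling of animals and isolation differed together between the 2 groups and cannot be told apart.

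An active promoter is kept free of nucleosomes where the transcription machinery assembles, and the transposase used in ATAC-seq inserts its adapters preferentially there, so that the number of integrations over a site measures how accessible it is. Many promoters of widely used genes are rich in CpG and open in every cell type, whereas promoters of tissue-restricted genes are often CpG-poor and open where a sequence-specific factor binds. Between the suckling period and adulthood, rat beta cells lose most of their proliferation and gain glucose-stimulated insulin secretion. Islets hold beta, alpha, delta and other endocrine cells together with vessels and connective tissue, and in such bulk samples fewer cells of a type and less accessibility per cell cannot be told apart.

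The letters of 6 promoters to which the results below return are shown first, as the 250 bases before the annotated start, 5′ to 3′ on the strand of the gene, from RefSeq on the GRCr8 assembly, which is not the Rn5 assembly of the sites. The first 4 belong to genes whose promoter sites were more accessible in adults. Capitals mark TGANTCA, which takes in TGAGTCA and TGACTCA, the core recognised by AP-1 factors such as FOS and JUN. The second stretch marked in Emp1, TGATTCA, fits the pattern but is not that core.
Emp1 (chr4:169943980-169944229, plus strand): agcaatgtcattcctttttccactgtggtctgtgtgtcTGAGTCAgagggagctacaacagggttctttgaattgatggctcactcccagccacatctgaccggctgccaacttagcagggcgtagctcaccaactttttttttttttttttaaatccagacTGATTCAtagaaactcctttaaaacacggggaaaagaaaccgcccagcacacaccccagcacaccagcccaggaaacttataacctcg
Fgb (chr2:170700876-170701125, minus strand): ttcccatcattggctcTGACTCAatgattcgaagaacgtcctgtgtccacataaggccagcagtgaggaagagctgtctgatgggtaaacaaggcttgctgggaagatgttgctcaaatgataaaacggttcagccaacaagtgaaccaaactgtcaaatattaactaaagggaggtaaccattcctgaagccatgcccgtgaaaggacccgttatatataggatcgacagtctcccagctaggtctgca
Defb18 (chr9:28349794-28350043, minus strand): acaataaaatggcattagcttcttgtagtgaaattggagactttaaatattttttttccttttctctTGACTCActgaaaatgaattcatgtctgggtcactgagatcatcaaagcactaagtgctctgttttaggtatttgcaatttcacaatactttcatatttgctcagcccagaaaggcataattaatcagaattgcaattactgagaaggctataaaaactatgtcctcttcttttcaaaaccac
Cxcl11 (chr14:15973478-15973727, plus strand): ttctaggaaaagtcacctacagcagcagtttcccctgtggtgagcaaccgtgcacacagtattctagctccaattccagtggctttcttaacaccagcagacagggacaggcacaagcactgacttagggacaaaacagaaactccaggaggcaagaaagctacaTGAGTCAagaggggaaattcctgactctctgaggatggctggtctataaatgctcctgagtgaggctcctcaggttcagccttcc
The other 2 are the insulin promoters, which were more accessible in P10 islets. Their capitals mark the TATA box.
Ins1 (chr1:261185869-261186118, plus strand): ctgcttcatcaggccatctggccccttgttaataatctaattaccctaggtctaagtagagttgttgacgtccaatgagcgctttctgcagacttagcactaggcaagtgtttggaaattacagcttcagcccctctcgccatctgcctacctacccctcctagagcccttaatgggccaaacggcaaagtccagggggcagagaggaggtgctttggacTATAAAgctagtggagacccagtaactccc
Ins2 (chr1:207273806-207274055, minus strand): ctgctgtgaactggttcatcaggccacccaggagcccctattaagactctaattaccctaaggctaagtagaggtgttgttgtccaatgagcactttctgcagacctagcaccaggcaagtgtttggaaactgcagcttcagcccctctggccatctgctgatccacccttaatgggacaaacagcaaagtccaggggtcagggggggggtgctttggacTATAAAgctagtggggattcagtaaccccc

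The files held 7916919 to 11903909 integrations per Adult library and 13491534 to 21168463 per P10 library over all ACS, so P10 values rest on more counts. Total reads per library, as the study lists them, overlapped between the ages. A smaller part of the reads therefore fell in ACS in every Adult than in every P10 library, and why was not tested. Promoter sites took 24.8 to 26.4% of the integrations in adults and 27.4 to 28.6% in P10. The median promoter site had 115 to 192 integrations in an Adult library and 243 to 397 in a P10 library. Levels below are TMM-scaled counts per 1000000 integrations in ACS (CPM). Fold changes are log2 of Adult over P10 with their standard error (SE). They come from edgeR's quasi-likelihood test across all 101603 ACS, with p adjusted by Benjamini-Hochberg over all of them. A site was called Up (more accessible in adults) or Down (more accessible in P10) at p under 0.05 and an adjusted p under 0.2. When each of the 6 libraries was left out in turn, 97 Up and 202 Down promoter sites kept their call in all 6 fits. Unless stated otherwise, the called promoters given below with their values in each library belong to these.

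Which promoters open or close between P10 and adulthood was asked first. Promoters shifted towards P10: 870 were called Down (7.88%) and 302 Up (2.74%), whereas over all ACS 6.63% were Down and 12.3% Up. The median log2 fold change was -0.10 over promoter sites and -0.01 over all ACS. Called promoters changed by modest amounts, with a median of 0.63 for Up and -0.64 for Down, and 37 Up and 113 Down promoters exceeded 1 on the log2 scale. The 2 ages did not overlap in 256 of the 302 Up promoters and in 728 of the 870 Down promoters. Over all promoter sites, called or not, 5.25% had all adults higher and 15.6% all adults lower, against 13.8% and 10.9% of all ACS.

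The balance of Up and Down promoters depended on the scaling, since the test asks for a change relative to the other sites. With scaling factors computed on promoter sites alone, 650 were Up and 512 Down, and with column sums alone 197 were Up and 1904 Down. With the total number of reads of each library as its size, which moved the median of all ACS to -0.84, 3 promoters were Up and 9960 Down, so that every direction below is relative to the other ACS. The Up count was 156 without Adult replicate 4, 470 without Adult replicate 5, 128 without P10 replicate 2 and 149 without P10 replicate 3, and the Down count was 435 without Adult replicate 6 and 353 without P10 replicate 2. A core of 95 Up and 183 Down promoters kept its call in all 6 fits without a library and under all 6 other scalings that work from the site counts. The median of promoter sites minus that of all ACS lay between -0.16 and -0.07 under these 6 scalings.

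**Figure D1:**
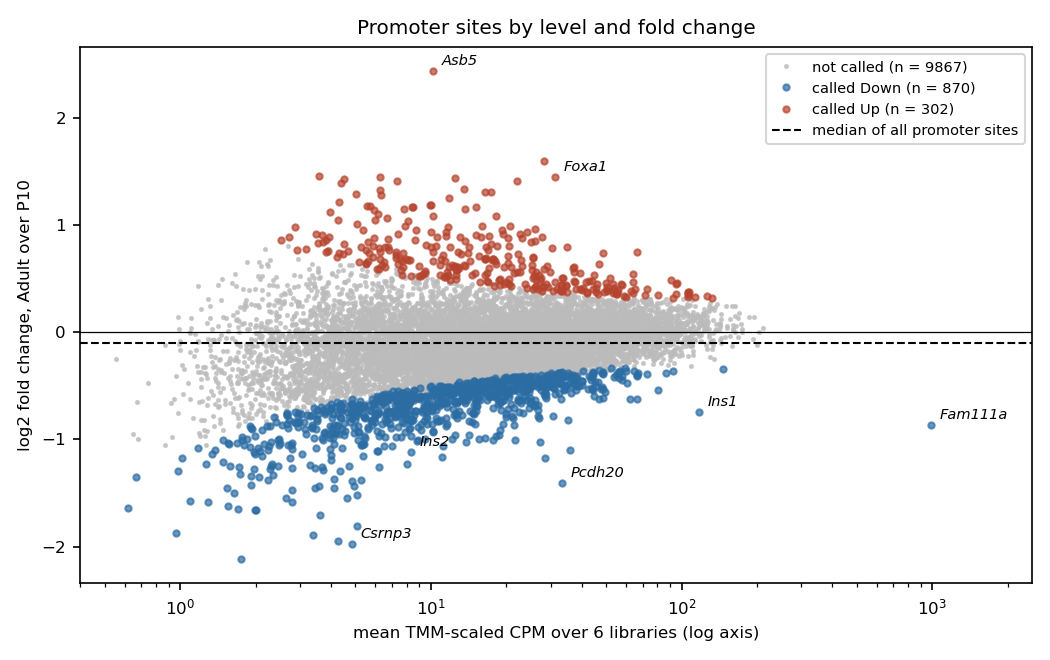
Each point is 1 of the 11039 promoter sites, with its mean CPM over the 6 libraries on a log axis and its log2 fold change of Adult over P10. Red marks the 302 sites called Up, blue the 870 called Down and grey the rest, and the dashed line is the median of -0.10. The Down points crowd the left side of the plot, and Fam111a stands alone at the far right.

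Asb5, an ankyrin-repeat adaptor of ubiquitin ligases best known from muscle, had the largest rise. Its site measured 16.8, 15.8 and 19.1 CPM in Adult replicates 4, 5 and 6 and 2.74, 2.57 and 4.18 in P10 replicates 1, 2 and 3. The log2 fold change was 2.43 (SE 0.25, adjusted p = 5.00e-07, edgeR), and the lowest adult was several times the highest P10 library. This site lay upstream of the annotated start, from position -1141 to -865 relative to it.

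Foxa1, a pioneer factor of endoderm that can bind closed chromatin, was second to Asb5 in the order of p. Its upstream site (chr6:88074841-88075490, Rn5), from position -1250 to -601 relative to the annotated start, held 53.4, 42.1 and 42.2 CPM in adults and 18.7, 14.7 and 17.0 in P10. The rise was 1.45 (SE 0.18, adjusted p = 4.41e-06). The related gene Foxa2 went the other way, with 41.5, 34.7 and 32.1 CPM in adults and 57.2, 49.4 and 48.6 in P10 (-0.52, SE 0.16, adjusted p = 0.0445), and the groups overlapped at neither gene. The Foxa2 call held without any single library but not when each 10 Mb window was scaled on its own sites (-0.18).

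The other Up promoters with the smallest p belonged to genes of varied kinds. Fgb, the beta chain of fibrinogen, was among the most even, with 22.2, 24.4 and 23.6 CPM in adults and 9.76, 9.06 and 9.52 in P10 (1.31, SE 0.20). Emp1, a tetraspan epithelial membrane protein, held 36.5, 25.9 and 33.6 CPM in adults and 13.3, 12.3 and 10.5 in P10 (1.41, SE 0.20). The beta-defensin Defb18 rose by 1.45 (SE 0.27), from 3.38 ± 0.51 to 9.13 ± 1.89 CPM (SD, n = 3 in each group), and the organic anion transporter Slco1a4 by 1.17 (SE 0.22). The other promoters among the 12 with the smallest p were Oacyl (1.59, the widest scatter, 28.9 to 59.4 CPM in adults), Ccdc33 (1.44), Dirc2, a lysosomal transporter (1.33), Naa30, the catalytic subunit of an N-terminal acetyltransferase (1.31), Pdzrn4 (1.15) and Ppargc1a. In none of these did an adult library fall to the level of a P10 library.

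Ppargc1a encodes PGC-1alpha, the coactivator that drives mitochondrial biogenesis and oxidative metabolism, and 2 promoter sites of the gene were both called Up. The site over the start held 21.6, 22.9 and 30.0 CPM in adults and 13.2, 10.3 and 11.4 in P10 (1.09, SE 0.20, adjusted p = 0.000727, edgeR). A second, stronger site from 635 to 2021 bp inside the gene held 63.1, 46.6 and 64.8 CPM in adults and 43.6, 37.0 and 45.9 in P10 (0.46, SE 0.17, adjusted p = 0.0841). The call of the second site was lost without Adult replicate 4 (0.40), Adult replicate 6 (0.38) or P10 replicate 2 (0.36). Ppargc1b, its paralog, had 0.47 (SE 0.17, adjusted p = 0.0906), and its call was lost without Adult replicate 4 (0.37), P10 replicate 2 (0.46) or P10 replicate 3 (0.41) and under scaling by chromosome or 10 Mb window.

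Among Down promoters, Pcdh20, a protocadherin of cell adhesion, had the smallest p. Its site held 13.4, 21.8 and 19.6 CPM in adults and 39.0, 56.7 and 49.2 in P10, a log2 fold change of -1.40 (SE 0.20, adjusted p = 2.29e-05, edgeR). Csrnp3, a nuclear protein that regulates transcription, had the larger change of -1.98 (SE 0.31), with 7.69 ± 1.11 CPM in P10 and 1.96 ± 0.45 in adults (SD, n = 3 in each group). Every adult was below every P10 library at both.

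Fam111a, a serine protease that acts at replication forks, was unlike any other promoter in level. Its site (chr1:236163058-236163988, Rn5) held 561, 770 and 770 CPM in adults and 1125, 1318 and 1387 in P10, while the median promoter site held 16.7. The fold change was -0.87 (SE 0.13, adjusted p = 7.97e-05). It is the highest of all 11039 promoter sites, and whether near-identical sequence elsewhere contributes to such a count was not tested.

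The rest of the 12 Down promoters with the smallest p were also of varied kinds. Aldh1a1, which makes retinoic acid, held 23.2, 20.1 and 25.4 CPM in adults and 38.7, 57.1 and 51.0 in P10 (-1.10, SE 0.18). Frem2, a protein of embryonic basement membranes, had -1.18 (SE 0.19), and Flrt3, an adhesion molecule of the axon guidance and FGF pathways, -1.03 (SE 0.19). Hs6st2, a heparan sulfate sulfotransferase, had -1.51 (SE 0.30), and Slc24a3, a potassium-dependent sodium-calcium exchanger, -1.01 (SE 0.20). The set was completed by Mfsd6l (-1.95), the Notch target Heyl (-1.16), the linker histone gene Hist1h1b (-1.23) and Chmp4c, an ESCRT-III subunit of the abscission step of cell division (-1.01). The P10 values were tight at Chmp4c (22.8 to 24.2 CPM) and wider at Aldh1a1, and no library crossed to the other group.

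**Figure D2:**
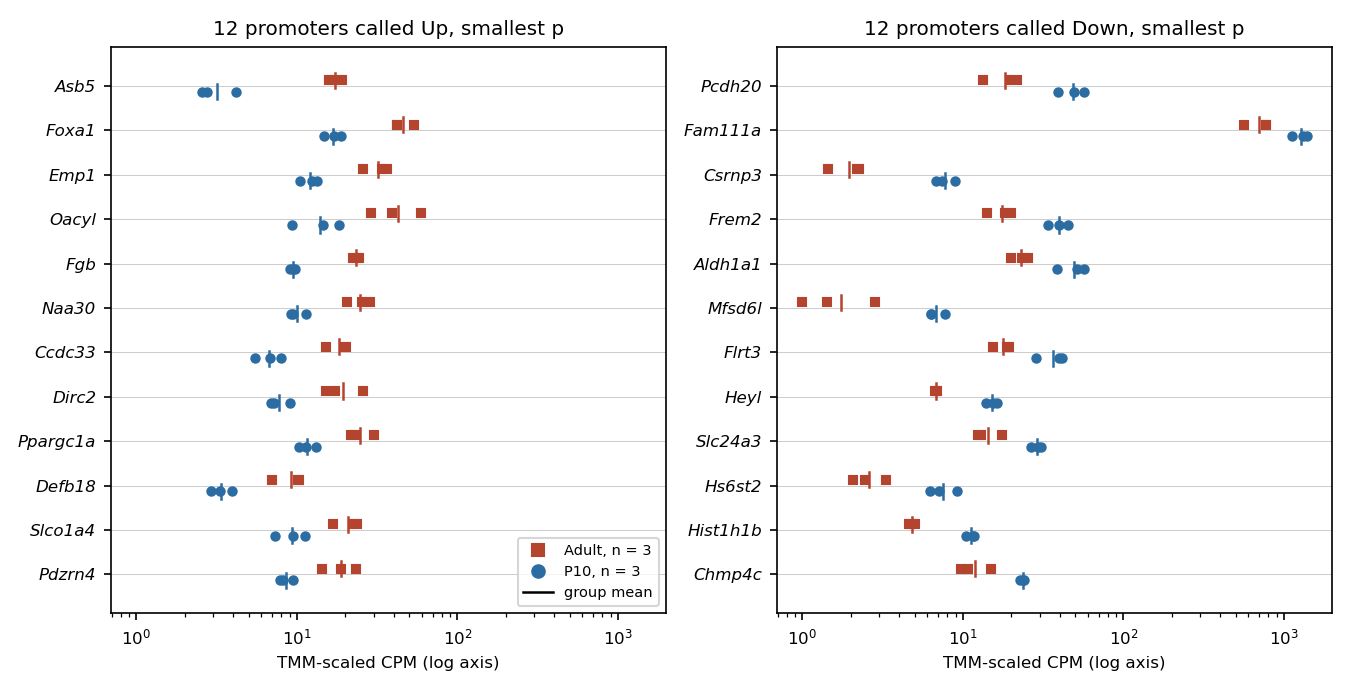
CPM on a log axis in each library at the 12 Up and the 12 Down promoters with the smallest p, with Adult libraries as red squares, P10 libraries as blue circles and vertical bars at the group means (n = 3 each). The groups do not overlap in any row, as the choice of rows requires, and Asb5 shows the widest separation on the left.

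Next, the promoters of the genes that define islet endocrine cells were examined. Insulin promoters were more accessible in P10 islets. The Ins1 site spans the whole small gene, from position -807 to 1906 relative to its start (chr1:280212808-280215521, Rn5), and held 94.4, 75.1 and 94.9 CPM in adults and 203, 106 and 134 in P10. Its log2 fold change was -0.75 (SE 0.18, adjusted p = 0.00742, edgeR). At Ins2 (chr1:222752546-222753191, Rn5) adults had 6.42, 5.06 and 4.25 CPM and P10 17.7, 8.77 and 7.77 (-1.12, SE 0.29, adjusted p = 0.0133). P10 replicate 1 was the highest library at both genes. Without it the changes were smaller, -0.46 for Ins1 (adjusted p = 0.0903) and -0.66 for Ins2 (adjusted p = 0.150), and both calls held.

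Other beta cell promoters were read together with the insulin genes. Of 31 promoter sites of the beta cell hormone and identity list, 1 was Up (3.23%) and 5 were Down (16.1%), beside 2.74% and 7.88% of all promoters. The list's median log2 fold change was -0.04, beside -0.10 over all promoter sites. The 1 Up site was Ucn3, a peptide hormone of mature beta cells, with 19.9, 15.2 and 18.6 CPM in adults and 14.4, 10.8 and 11.4 in P10 (0.55, SE 0.21, adjusted p = 0.110). Its groups did not overlap, but the call was lost without Adult replicate 4 (0.46), Adult replicate 6 (0.52), P10 replicate 2 (0.45) or P10 replicate 3 (0.49), and under scaling by 10 Mb window. Besides the insulin genes and Foxa2, the Down sites were 2 sites of Npas4, an activity-induced transcription factor. Pdx1 had -0.17 (SE 0.28) and Nkx6-1 0.01 (SE 0.17), with overlapping groups at each. Iapp, the amylin gene, had 0.22 (SE 0.19), and was called Up without Adult replicate 5 (0.40, adjusted p = 0.190). The signs of Pdx1 and Nkx6-1 changed with the library left out. The list's Down count was 3 without Adult replicate 5, Adult replicate 6 or P10 replicate 1, 7 without Adult replicate 4 and 2 under scaling by 10 Mb window, where no site was Up.

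Beside 7.88% Down and 2.74% Up of all promoters, genes of the other endocrine cells gave 3 Down sites (17.6%) and no Up site of 17. Hhex, the delta cell homeobox factor, contributed 2 of them, and the one at its start held 7.59, 9.64 and 5.80 CPM in adults and 10.7, 17.5 and 13.2 in P10 (-0.83, SE 0.25, adjusted p = 0.0320). Without P10 replicate 2 the adjusted p was 0.232 (-0.65). The third was Rbp4. Glucagon (Gcg) had -0.23 (SE 0.23) and somatostatin (Sst) -0.44 (SE 0.35), neither of them called, although Sst was Down without Adult replicate 6 (-0.92, adjusted p = 0.169). The list kept 1 Down site without P10 replicate 2 or P10 replicate 3, and with scaling on promoter sites it had 1 Up and 1 Down. The pancreatic polypeptide gene Ppy had no promoter site.

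Exocytosis and electrical activity, the machinery that couples glucose to secretion, were read at their promoters too. Of 29 sites of exocytosis and calcium-sensing genes, 1 was Up and 1 Down (3.45% each), beside 2.74% Up and 7.88% Down of all promoters. The Up site was Syt4, a synaptotagmin that sets the calcium response of beta cell exocytosis, with 24.2, 18.4 and 22.3 CPM in adults and 14.1, 10.3 and 16.0 in P10 (0.68, SE 0.21, adjusted p = 0.0388), a call lost without P10 replicate 2 (0.51). The Down site was Snap25. Among 24 sites of channel genes, 2 were Up and 2 Down (8.33% each). The potassium channel Kcnb2 had -0.82 (SE 0.27, adjusted p = 0.0593), lost without Adult replicate 6 (-0.68), and the calls of Cacna2d3 (Up) and Kcnq1 (Down) were each lost without several libraries, Adult replicate 4 and P10 replicate 2 among them.

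Cell division was examined because P10 islets proliferate and adult islets hardly do. Of 38 sites of cell cycle and mitosis genes 4 were Down and none Up, a share of 10.5% beside 7.88% of all promoters. Aurkb, the kinase of the chromosomal passenger complex, had the only one that held without each library, with 3.98, 4.09 and 2.84 CPM in adults and 8.69, 7.13 and 5.97 in P10 (-0.99, SE 0.28, adjusted p = 0.0246). Plk1, Cdc20 and Ccnd1 had -0.48, -0.49 and -0.68, and each lost its call without P10 replicate 2 (-0.43, -0.47 and -0.58). The Down count was 2 without Adult replicate 6 or P10 replicate 1, 10 with column sums and 11 with cyclic loess, and 1 site of each direction was called with scaling on promoter sites. DNA replication genes gave 1 Up (Mcm6) and 1 Down (Pcna) of 28 sites. The list had none Up and 3 Down without Adult replicate 4, 2 Up and none Down without Adult replicate 5 and no call without any of the other libraries, and each of both calls was kept in 1 of these 6 fits. Neither call held under scaling by chromosome or by 10 Mb window, where Pcna reached 0.04. None of the 14 sites of CDK inhibitors and cell cycle exit genes was called, with a median of -0.22 and 13 of them below 0, while 1 was below 0 at an unadjusted p under 0.05 and DESeq2 and limma voom called none. Without Adult replicate 4, 3 of them were Down. For all 19 lists and families below or above with no Up site by edgeR, at most 1 site was above 0 at an unadjusted p under 0.05, none was Up by DESeq2 and at most 1 by limma voom.

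Of 34 histone sites 10 were Down (29.4%) and 1 Up (2.94%), beside 7.88% and 2.74% of all promoters. Their median was -0.20, beside -0.10 over all promoter sites, and 28 sites were below 0. Replication-dependent histones, which are made during S phase, gave most of the Down sites. Hist1h1b, the H1.5 linker histone, held 5.06, 4.67 and 4.64 CPM in adults and 11.6, 11.8 and 10.5 in P10 (-1.23, SE 0.24, adjusted p = 0.00125, edgeR). Hist1h2ail1 held 12.6, 12.95 and 12.6 CPM in adults and 25.5, 26.7 and 22.2 in P10 (-0.96, SE 0.19), and Hist1h2bg had -0.68 (SE 0.18). The adult values were nearly constant at each. The 1 Up site was at H2afy, a replication-independent macroH2A gene, where the groups overlapped and the change was 0.73 with all libraries and 0.37 without Adult replicate 5. The number of Down histone sites was 7 with scaling on promoter sites, 8 with 10 Mb windows, 5 without Adult replicate 6 and 6 without P10 replicate 2.

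The insulin-like growth factor system had the highest share of Down sites of the 53 symbol families with at least 10 sites. Of its 19 sites, 8 were Down (42.1%, beside 7.88% of all promoters) and none Up, with a median of -0.35. The family includes Ins1 and Ins2 by symbol, so it shares those values with the beta cell list. Igf2bp2, an RNA-binding protein that binds Igf2 mRNA, held 18.3, 20.1 and 14.4 CPM in adults and 30.4, 28.5 and 23.3 in P10 (-0.63, SE 0.19, adjusted p = 0.0359). Its fetal relative Igf2bp1 was much lower, at 0.36, 1.66 and 1.55 CPM in adults and 3.72, 2.92 and 2.22 in P10 (-1.35, SE 0.44), and the call depended on Adult replicate 4, without which the value was -0.88 (adjusted p = 0.249). The binding protein genes Igfbpl1, Igfbp1, Igfbp3 and Igfbp4 made up the rest. The Down count was 6 with scaling on promoter sites and between 4 (without P10 replicate 2) and 7 without a library, and 1 site was Up without P10 replicate 1.

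Fetal and neonatal growth genes, a list that overlaps the last family, gave 6 Down (26.1%, beside 7.88% of all promoters) and no Up of 23 sites. Dlk1, an imprinted Notch-family ligand of the fetal pancreas, held 2.53, 1.56 and 1.93 CPM in adults and 5.35, 6.21 and 3.07 in P10 (-1.26, SE 0.35, adjusted p = 0.0191). Meg3, the noncoding RNA of the same imprinted locus, Gpc3, Sox9 and the Igf2bp genes were the others. Sox9 (-0.74, SE 0.27) lost its call without Adult replicate 6 (-0.53) or P10 replicate 3 (-0.72). The Down count fell to 3 without Adult replicate 4 and to 3 without Adult replicate 6.

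Notch, Wnt and Hippo signalling had 9 Down (24.3%, beside 7.88% of all promoters) and no Up of 37 promoter sites, with a median of -0.25. These 9 Down sites were the largest number of any list. Jag1, a Notch ligand, had 2 Down sites, and the upstream one held 19.9, 28.1 and 28.5 CPM in adults and 37.4, 45.6 and 51.5 in P10 (-0.82, SE 0.18, adjusted p = 0.00389). Heyl, a repressor that Notch induces, held 6.69, 6.91 and 6.83 CPM in adults and 15.3, 16.4 and 14.01 in P10 (-1.16, SE 0.22, adjusted p = 0.000968). Without Adult replicate 5, 2 other sites of the list were Up. On the Hippo side, the coactivator gene Wwtr1, which encodes TAZ, held 11.7, 13.5 and 11.3 CPM in adults and 19.6, 29.1 and 23.4 in P10 (-0.97, SE 0.21). Its target gene Cyr61 had 2 Down sites, with -0.86 (SE 0.24) at the one over the start, and Ctgf, a further target, was also Down. Notch1 and the Wnt-responsive factor Lef1 were the remaining ones. The Down count ranged from 5 without P10 replicate 3 to 10 without Adult replicate 5 or P10 replicate 1, and was 11 under scaling by chromosome or by window. With scaling on promoter sites 6 remained Down and 2 were Up.

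Promoters of inhibitors of differentiation, proteins that block basic helix-loop-helix (bHLH) factors, were among the Down sites. Id1 held 1.90, 4.28 and 2.19 CPM in adults and 7.39, 6.42 and 6.19 in P10 (-1.25, SE 0.31, adjusted p = 0.0102). Id3 held 14.1, 10.4 and 10.6 CPM in adults and 17.8, 17.4 and 18.6 in P10 (-0.61, SE 0.21, adjusted p = 0.0668). With Id4, Heyl and Bhlhe22 they made 5 Down of 25 bHLH sites (20%, beside 7.88% of all promoters), while the family's median was -0.04. The other 20 bHLH sites were not called. The Down count was 3 without Adult replicate 5, Adult replicate 6, P10 replicate 2 or P10 replicate 3, and with scaling on promoter sites 4 were Down and 1 Up.

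Matrix and disallowed genes leaned the same way. Of 25 extracellular matrix sites 4 were Down (16%, beside 7.88% of all promoters) and none Up. The matrix list had the lowest median of the larger lists (-0.34), with 23 sites below 0. Lama1, a laminin chain of basement membranes, held 12.7, 14.1 and 12.5 CPM in adults and 17.6, 26.9 and 29.6 in P10 (-0.91, SE 0.21, adjusted p = 0.00542). The other 3 sites, both of Col4a1 and 1 of Fbn1, lost their calls without Adult replicate 4 or P10 replicate 2, and the list had 1 Down site without either of those libraries and 2 without Adult replicate 6 or P10 replicate 3 or with scaling on promoter sites. Disallowed genes are housekeeping genes that beta cells silence selectively, and 6 of their 25 sites were Down (24%) and none Up. They were 2 sites of Nfib, Hk1 (hexokinase 1), Igfbp4, Smad3 and the monocarboxylate transporter gene Slc16a1. No site of the list was Down without P10 replicate 2, and the count was 1 without Adult replicate 4 or with scaling on promoter sites, 2 without P10 replicate 3 and 3 without Adult replicate 5. Hk1 held 11.9, 11.8 and 13.02 CPM in adults and 16.0, 21.9 and 15.0 in P10 (-0.53, SE 0.21, adjusted p = 0.135), and -0.36 without P10 replicate 2.

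Immediate early genes, which respond within minutes to stimulation or to tissue handling, had 2 Up (5.13%) and 6 Down (15.4%) of 39 sites. Over all promoters 2.74% were Up and 7.88% Down. Jund held 6.51, 8.47 and 6.19 CPM in adults and 16.6, 12.98 and 10.5 in P10 at the site inside the gene (-0.92, SE 0.24, adjusted p = 0.0147), and its second site was also Down. Fos had -0.47 (SE 0.18), or -0.30 without P10 replicate 1 where the call was lost, as it was without Adult replicate 6 (-0.42). Klf2, Fosb and Ier2 were the remaining Down sites. In the opposite direction, Dusp6, a phosphatase that ERK signalling induces, held 44.5, 38.4 and 52.6 CPM in adults and 24.96, 31.9 and 31.7 in P10 (0.61, SE 0.17, adjusted p = 0.0231), and Nr4a3 was the second Up site. The Down count was 3 without Adult replicate 6, P10 replicate 1 or P10 replicate 2, and 3 of each direction with scaling on promoter sites, while with column sums or cyclic loess it was 12. The handling of the tissue differed between the ages, and its part here cannot be told apart from age.

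Nuclear receptors and the genes of the metabolic switch at weaning had 4 Up (9.30%) and 3 Down (6.98%) of 43 sites. Over all promoters 2.74% were Up and 7.88% Down. Besides the 3 sites of the PGC-1 genes above, the retinoic acid receptor gene Rarb was Up. Txnip, a glucose-induced inhibitor of thioredoxin, held 14.5, 14.6 and 14.2 CPM in adults and 23.4, 22.3 and 18.8 in P10 (-0.57, SE 0.20, adjusted p = 0.0658), and lost its call without P10 replicate 2 (-0.56, adjusted p = 0.203). Rxrb, a retinoid X receptor gene, was also Down. The Up count of the list was 1 without Adult replicate 4 or P10 replicate 2 and 2 without Adult replicate 6 or under scaling by chromosome or window, and the Down count was 1 without Adult replicate 6 or P10 replicate 2.

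Calls of 3 further lists are given beside 2.74% Up and 7.88% Down of all promoters. Unfolded protein response genes had 1 Up (the co-chaperone gene Dnajb9, 3.45%) of 29 sites. They also had 3 Down (Syvn1, Edem2 and the chaperone gene Hspa5, together 10.3%). At Hspa5 the groups overlapped, and the value was -0.45 with all libraries, -0.25 without P10 replicate 1, -0.24 without Adult replicate 6 and -0.73 without Adult replicate 4. Dnajb9 had 0.64, and 0.38 without Adult replicate 4. The clock list had 1 Down site (Tef) of 15 (6.67%). Chromatin writers, erasers and DNA methylation genes had 2 Down (Eed and Cbx2, both of Polycomb complexes) of 16 (12.5%). The latter list had 6 Down with column sums or cyclic loess and none by chromosome, by 10 Mb window, with scaling on promoter sites or without P10 replicate 2. None of the 7 sites called in these lists was called in every fit without a library.

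Scaling moved the Down counts of most lists. Of the 34 lists and families described, 26 had more Down sites with column sums and 23 with cyclic loess, none had fewer under either, and 25 had fewer with scaling on promoter sites. Over all 11039 promoter sites, 1904 were Down with column sums and 1979 with cyclic loess. The same count was 512 with scaling on promoter sites and 353 without P10 replicate 2. List counts under each setting stand beside these. With column sums, 14 of 37 Notch, Wnt and Hippo sites, 10 of 25 disallowed sites and 5 of 17 other endocrine sites were Down. So were 5 of 43 nuclear receptor, 5 of 29 unfolded protein response and 4 of 29 exocytosis sites. The same held for 3 of 28 replication, 3 of 14 CDK inhibitor and 2 of 4 endothelial sites.

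**Figure D3:**
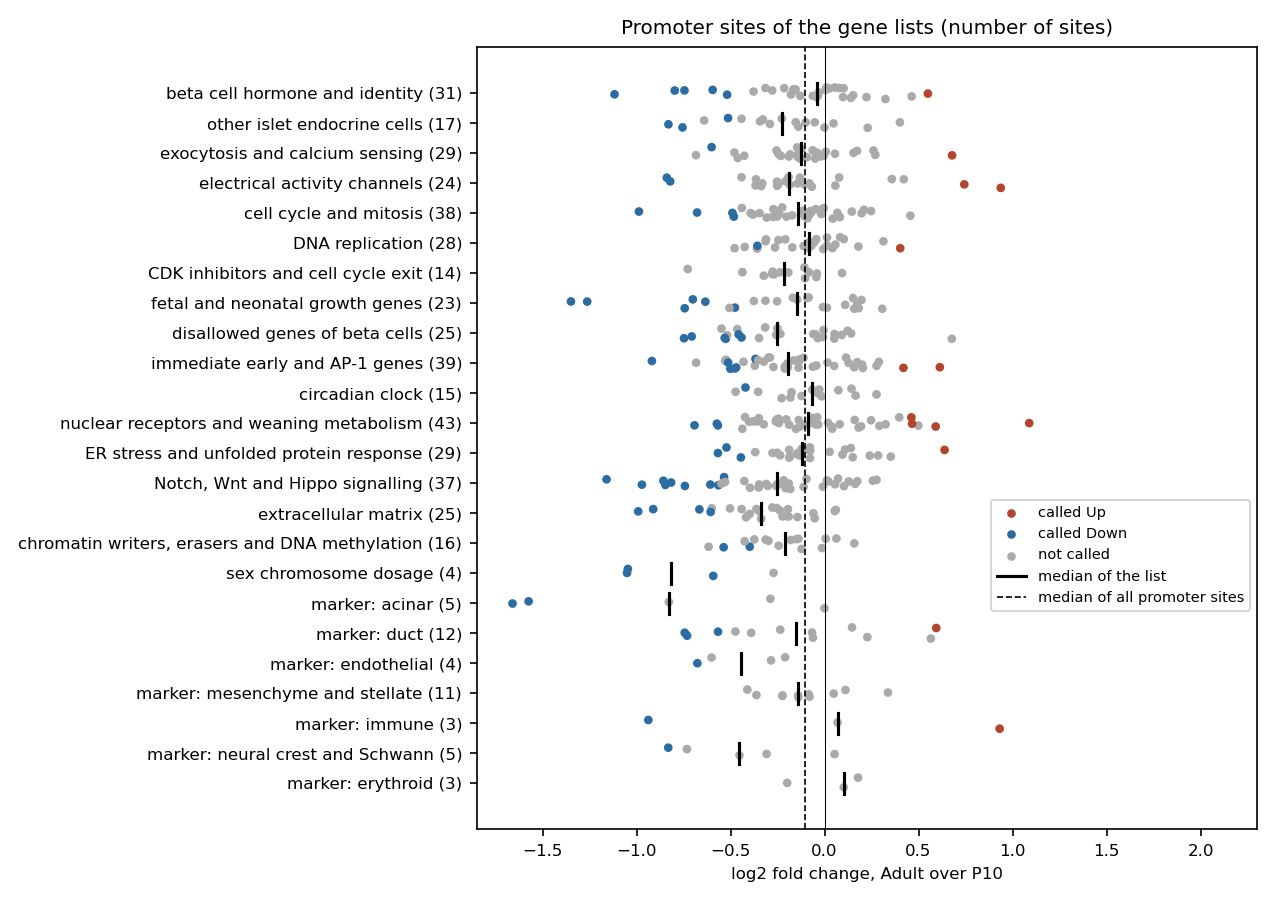
Every promoter site of the 24 gene lists by its log2 fold change of Adult over P10, with the number of sites of each list in brackets. Red points are called Up, blue called Down and grey not called, black bars are list medians and the dashed line is the median of all promoter sites. The Notch, Wnt and Hippo list has 9 blue points and no red one, and the beta cell list has 5 blue points on the left, at Ins1, Ins2, Foxa2 and 2 sites of Npas4, and 1 red one.

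Receptors of neurotransmitters were another family with a high share of Down sites. Of 36 sites of GABA, glutamate, glycine and acetylcholine receptor genes, 9 were Down (25%, beside 7.88% of all promoters) and none Up. The family's median was -0.26. Chrna7, a nicotinic acetylcholine receptor subunit, held 27.02, 27.8 and 22.9 CPM in adults and 38.7, 37.9 and 43.2 in P10 (-0.62, SE 0.17, adjusted p = 0.0175). Gabrq and Gabre, which encode GABA-A receptor subunits, followed with -0.67 (SE 0.19) and -0.86 (SE 0.26). RefSeq places both genes on a different chromosome in GRCr8 than the table does in Rn5, as it does for 99 promoter sites in all, so the gene names of these 3 sites (Gabre has 2) are less certain. Gabre lost its call without P10 replicate 3 (-0.68) and had -0.57 without Adult replicate 5. The family count of Down sites was 4 without P10 replicate 3, 5 without P10 replicate 2 and 6 with scaling on promoter sites or by chromosome, and without Adult replicate 4 or Adult replicate 6.

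Keratins and claudins, mostly structural proteins of epithelia, had 4 Down (28.6%, beside 7.88% of all promoters) and no Up of 14 sites. Krt80 held 3.52, 5.75 and 3.35 CPM in adults and 7.86, 8.63 and 7.61 in P10 (-0.92, SE 0.28, adjusted p = 0.0322). The claudins were Cldn7 (-0.82), Cldn9 (-0.83) and Cldn5 (-0.68), and the Cldn5 site is also counted in the endothelial marker list below. The number of Down sites fell to 1 without Adult replicate 6 and to 2 without P10 replicate 1 or with scaling on promoter sites.

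Families with the highest shares of Up sites were small or mixed. Tubulins and actins had 2 Up (14.3%) and 1 Down (7.14%) of 14 sites, beside 2.74% and 7.88% of all promoters. Tubb6, a beta-tubulin, held 37.0, 26.5 and 25.8 CPM in adults and 19.3, 15.2 and 12.8 in P10 (0.92, SE 0.20, adjusted p = 0.00354), and Tuba8 had 0.58 (SE 0.18). Both stayed Up under every scaling of the site counts and without each library, while the Down call of Actb was lost without Adult replicate 6 (-0.26), P10 replicate 1 (-0.39) or P10 replicate 2 (-0.34). Chromatin remodelers had 2 Up (Smarca1 and Ino80c) and 2 Down (Ino80b and Chd6) of 22 sites (9.09% each). Calcium and sodium channels had 2 Up (Cacng6 and Cacna2d3, together 8.70%) and none Down of 23. Of these 6 sites none was called in every fit without a library, and without P10 replicate 2 neither family had any. The same held for the remodelers without Adult replicate 6, and for the channels without Adult replicate 4 or P10 replicate 3 and with column sums.

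Cytokine, chemokine and receptor genes had 7 Up (8.97%) and 6 Down (7.69%) of 78 sites, beside 2.74% and 7.88% of all promoters. Cxcl11, an interferon-induced chemokine, held 11.5, 8.38 and 7.22 CPM in adults and 5.48, 2.85 and 2.70 in P10 (1.28, SE 0.30, adjusted p = 0.00505). Il23a, a subunit of interleukin-23, held 16.5, 11.4 and 7.09 CPM in adults and 6.46, 4.49 and 4.65 in P10 (1.17, SE 0.28). The interleukin-1 system gave most of the rest, with Il1rn, the receptor antagonist (1.21, SE 0.30), the receptor gene Il1r1 and 2 sites of the decoy receptor gene Il1r2 Up, beside Il3ra. Among the Down sites, Tnfrsf1b, a receptor of tumour necrosis factor, held 6.60, 9.64 and 11.7 CPM in adults and 13.9, 17.1 and 16.7 in P10 (-0.78, SE 0.23), and Tnfsf4 (-0.87, SE 0.30, 2 sites called) and Tnfsf12 were further ones. The 6 Down sites also count Irf2bpl, which entered by its symbol and is not a cytokine, chemokine or receptor gene. Which direction had more calls changed with the scaling, with 11 Up and 4 Down on promoter sites alone and 5 Up and 13 Down with column sums. Down calls were also more numerous than Up calls under scaling by chromosome, by window or with cyclic loess, and without Adult replicate 4 or P10 replicate 1.

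MicroRNA genes had 68 promoter-class sites, at 67 genes, with a median of -0.05. Of these sites 8 were Up (11.8%) and 5 Down (7.35%), beside 2.74% and 7.88% of all promoters. The site is placed relative to the hairpin, so it need not be the promoter of the primary transcript. Mature sequences of the 4 called genes with the smallest p (Mir155, Mir344g, Mir129-1 and Mir759) and of the called relatives Mir129-2 and Mir344a-2 follow, from RefSeq, which matched 64 of the 68, with the seed (bases 2 to 8), the part that pairs with targets, in capitals. The first 6 belong to Up genes and the last pair to Down genes.
rno-miR-155-5p: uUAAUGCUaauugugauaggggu
rno-miR-155-3p: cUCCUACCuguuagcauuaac
rno-miR-129-5p: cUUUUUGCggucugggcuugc
rno-miR-129-1-3p: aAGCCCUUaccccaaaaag
rno-miR-129-2-3p: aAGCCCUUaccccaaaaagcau
rno-miR-759: gCAGAGUGcaaacaauuuugac
rno-miR-344g: aGUCAGGCuccuggcaggaguc
rno-miR-344a-5p: uCAGGCUCcuggcuagauu
Mir155, known from activated immune cells, held 6.60, 5.45 and 9.41 CPM in adults and 3.95, 2.21 and 2.43 in P10 (1.29, SE 0.31, adjusted p = 0.00651). Mir129-1 and Mir129-2, on different chromosomes, give the same 5p arm and 3p arms with the same seed, and the sites of both were Up. Mir129-1 held 15.9, 12.5 and 17.1 CPM in adults and 11.0, 7.99 and 7.14 in P10 (0.80, SE 0.23), and Mir129-2 had 0.76 (SE 0.30, adjusted p = 0.123), a call kept in 4 of the 6 fits without a library. Mir759 had 0.64 (SE 0.19), a call lost without P10 replicate 2 (0.53), and Mir344g -0.79 (SE 0.20) with 15.2, 15.0 and 13.5 CPM in adults and 20.4, 26.7 and 28.9 in P10. Mir344a-2 had -0.55, with overlapping groups, and -0.35 without Adult replicate 6. Its site (chr1:123505351-123505991, Rn5) lies close to that of Mir344g (chr1:123541178-123542033), so these 2 Down calls come from neighbouring sites. Over the family, Up calls numbered 3 without P10 replicate 3, 4 without Adult replicate 4 or P10 replicate 2, and 11 without P10 replicate 1, and Down calls between 1 and 5.

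Promoters of genes listed for sex chromosome dosage were read as well. The Adult rats were male and the P10 pools of both sexes, and Xist, the noncoding RNA that silences an X chromosome in females, held 1.27, 1.56 and 2.06 CPM in adults and 4.28, 2.64 and 3.01 in P10 (-1.05, SE 0.37, adjusted p = 0.0727). The call was lost without Adult replicate 4 (-0.89) or P10 replicate 1 (-0.83). Uba1, an X-linked ubiquitin-activating enzyme (-1.05, SE 0.29), and the Eif2s3 gene, which the table calls Eif2s3y (-0.59, SE 0.20), were Down as well. The list of dosage genes had 3 Down of 4 sites (75%, beside 7.88% of all promoters). The share of promoter integrations on chromosome X averaged 2.28% ± 0.03 for the 3 Adult and 2.42% ± 0.08 for the 3 P10 libraries (SD), with no overlap. The two-sided exact permutation p was 0.1, the smallest that 3 against 3 libraries allow. Several autosomes reached the same permutation p, so such a shift was not particular to chromosome X. Shares of chromosomes 1, 3 and 10 were also lower in every adult, with means on chromosome 10 of 4.32% in adults and 5.01% in P10. Other autosomes went the opposite way, among them chromosome 19 with 2.58% in adults and 2.25% in P10. Whether sex composition lowered the X share or the values of Xist, Uba1 and Eif2s3 was not tested. On autosomes alone 292 promoters were Up and 863 Down.

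Markers of other cells in the islet were read at their promoters too. Their lists held 3 to 12 sites each, and over all promoters 2.74% were Up and 7.88% Down. Of 22 acinar genes 5 had a promoter site, and the digestive enzyme genes Cpa1, Prss1, Ctrb1 and Cela1 had none. The acinar sites summed to 20.6 to 28.8 CPM in adults and 29.3 to 32.2 in P10, and 2 were Down. Isolation of the islets differed between the ages, and its part in these sums cannot be told apart from age. The Down sites were the amylase gene Amy2a3, with 0.45, 1.17 and 1.29 CPM in adults and 1.86, 3.28 and 3.91 in P10 (-1.66, SE 0.44), and Nr5a2, which lost its call without Adult replicate 4 (-1.11) or P10 replicate 2 (-1.08). Amylase genes are near-identical copies, and how their reads were divided is uncertain. Duct markers summed to 148 to 179 CPM in adults and 170 to 180 in P10, with 1 Up (Onecut1) and 3 Down (Cftr, Sox9 and Muc1) of 12 sites, none of which was called in every fit without a library. The endothelial sites, without Pecam1, Cdh5 or Vwf, summed to 28.8 to 38.2 and 38.2 to 44.5 CPM, with 1 Down (Cldn5) of 4, lost without Adult replicate 4, Adult replicate 6, P10 replicate 1 or P10 replicate 3 and with scaling on promoter sites. Mesenchymal markers summed to 126 to 138 and 128 to 147 CPM with 0 of 11 sites called, erythroid markers to 24.4 to 29.1 and 21.8 to 31.4 CPM with 0 of 3, and neural crest markers to 16.1 to 23.9 and 22.9 to 30.4 CPM with 1 Down (Ednrb) of 5. The Ednrb call was lost without Adult replicate 4 (-0.70), Adult replicate 6, P10 replicate 2 or P10 replicate 3. No mesenchymal or erythroid site reached an unadjusted p under 0.05 with edgeR, and none was called by DESeq2 or limma voom.

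Immune markers were the only marker list whose sum was higher in every Adult than in every P10 library, 43.7 to 53.2 CPM against 31.9 to 41.2 in P10. Of 22 genes, 3 had a site, with 1 Up and 1 Down beside 2.74% and 7.88% of all promoters. The pan-leukocyte gene Ptprc and the macrophage genes Csf1r and Cd68 had no site. Cd74, the invariant chain of MHC class II, gave most of that difference, with 31.9, 26.4 and 36.7 CPM in adults and 16.2, 15.9 and 17.6 in P10 (0.93, SE 0.19, adjusted p = 0.00136), while Coro1a was Down (-0.94, SE 0.31), without Adult replicate 6 -0.70 and not called. The part of any of these other cells in the promoter changes above was not tested.

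Promoters of all strengths changed, but Down calls lay mostly at weaker sites. When promoter sites were split by mean CPM into 5 groups of nearly equal size, 11.6, 10.6, 7.93, 6.57 and 2.72% were Down from the weakest to the strongest group, while 2.26, 3.35, 2.72, 2.67 and 2.67% were Up. The median log2 fold change moved from -0.23 in the weakest group to 0.0027 in the strongest. By position, the 8518 sites over the gene start that did not span the whole gene had 2.23% Up and 7.88% Down. The 1319 sites wholly inside the gene had 4.4% Up and 7.96% Down, and the 1144 sites wholly upstream 4.11% Up and 7.69% Down. Sites away from the start were also weaker, with a median of 5.22 CPM inside and 7.51 upstream against 20.97 over the start. Near the limit of the class, the 395 promoter sites listed at 900 to 1000 bp included 13 Up and 20 Down, and the 312 ACS just outside, listed at 1000 to 1100 bp, 12 Up and 23 Down.

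Where a gene had several promoter sites and any was called, it was mostly 1 site alone. Of 1193 such genes, 224 had at least 1 site called and 193 exactly 1. At 30 genes 2 or more sites were called in the same direction. Slc6a15, an amino acid transporter, had 3 sites Down, at -0.85, -1.37 and -1.06. Wnt2b had 2 of its 3 sites Down, and Il1r2, Nefm (a neurofilament subunit), Esrp2 and Ppargc1a had 2 sites Up each. The genes of this paragraph were chosen after their values were seen.

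Other ACS of the same genes, outside the promoter class, shifted in the direction of the promoter. Of 2555 such ACS at genes with an Up promoter, 18.9% were Up and 4.54% Down. At genes with a Down promoter, 9.64% of 4669 were Up and 12.2% Down, and at genes with no called promoter 14.6% of 50965 were Up and 6.08% Down. The medians were 0.10, -0.11 and 0.03. These are counts in the same libraries, with no test, and sites of a gene share its region.

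Fold changes also varied by chromosome. The promoter median was lowest on chromosomes 10 (-0.30), 3 (-0.25) and 1 (-0.22) and highest on 19 (0.09) and 18 (0.10). The share of promoters called Down was 15.2, 16.2 and 14.3% on chromosomes 10, 3 and 1 and under 10% on every other chromosome. All other ACS followed the promoters, with a Spearman rho of 0.76 and a Pearson r of 0.85 over 21 chromosome medians, which come from the same 6 libraries. Along chromosome 3 from 130 to 150 Mb (Rn5), 40 of 67 promoter sites were Down and none Up, with a median of -0.50, and the 658 other ACS there had a median of -0.36. The 10 Mb windows of this stretch had the lowest promoter medians of the 211 windows with at least 20 promoter sites, so it is the end of a ranking. The summed CPM of the 67 promoters was 1382, 1253 and 1269 in adults and 1822, 1789 and 1799 in P10. Jag1, Flrt3, Slc24a3, Snap25, Pcna and Foxa2 lie in this stretch. When each 10 Mb window was scaled on its own ACS, 11 of the 67 stayed Down, among them Jag1 (-0.41), Flrt3 (-0.70) and Slc24a3 (-0.67), while Foxa2, Snap25 and Pcna were no longer called. Over all promoters that scaling gave 301 Up and 746 Down, and scaling by chromosome 250 Up and 763 Down.

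**Figure D4:**
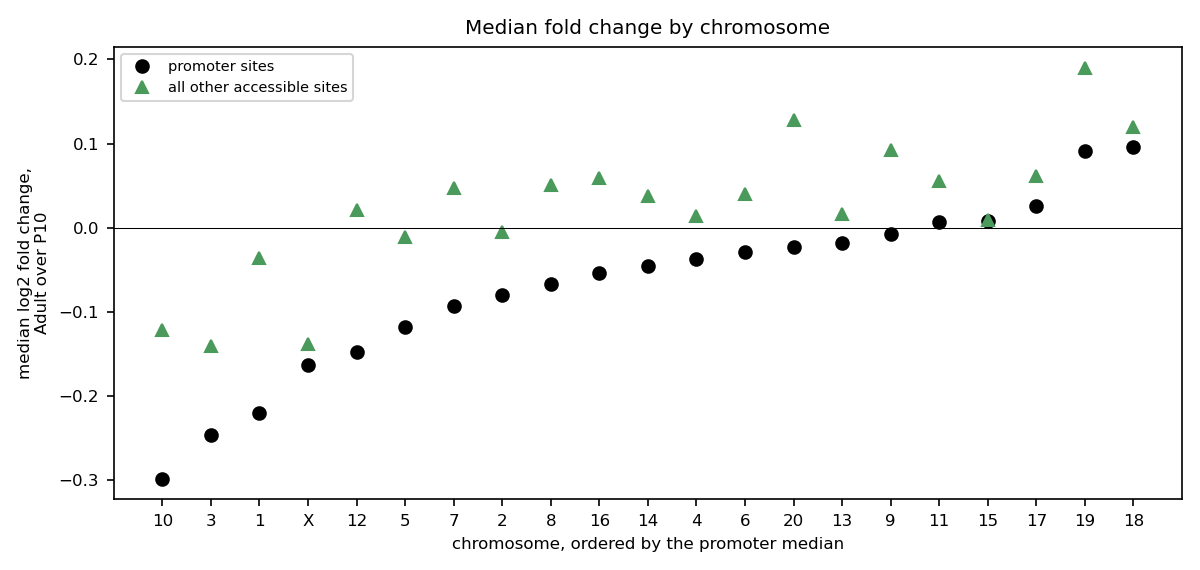
Median log2 fold change of Adult over P10 of the promoter sites (circles) and of all other ACS (triangles) on each chromosome, ordered by the promoter median. Chromosomes 10, 3 and 1 are at the left with promoter medians from -0.30 to -0.22, and 19 and 18 at the right with 0.09 and 0.10.

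Finally, the letters of the promoters were read in RefSeq, whose table gives the 250 bases before and 50 bases after the start and matched 8929 promoter sites (80.9%). The sequences belong to GRCr8 and need not lie inside the site, and a gene with several listed starts counted as holding a motif if any of them did, on either strand. Up promoters had fewer CpG, with a median of 15.5 per 300 bases against 22 at Down and at uncalled promoters, and a median GC content of 59.0% against 61.7 and 62.0%. In the lowest of 5 groups by GC content 4.43% of promoters were Up, against 1.76 to 2.06% in the other 4, while the Down share was 7.38 to 8.53% throughout. The rank correlation of GC content and fold change across promoters was 0.0063, and promoters are not independent replicates.

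AP-1 letters (TGANTCA) were more frequent in Up promoters than in the others. The pattern also counts TGAATCA and TGATTCA, which are not the AP-1 core, and the core alone was not counted. They were in 35 of 220 Up promoters (15.9%), 31 of 697 Down promoters (4.45%) and 4.27% of uncalled ones, against 7.33% of all 33469 promoter sequences of the table. Most of the Up promoters with these letters were CpG-poor: among promoters with fewer CpG than the median, 32 of 144 Up, 18 of 340 Down and 222 of 3940 uncalled promoters held them, and above it 3 of 76, 13 of 357 and 120 of 4072. Emp1, Fgb, Defb18 and Cxcl11, printed above, are in this set, as is Dirc2. Prdm1, a repressor that ends proliferation in differentiating cells, and Tph1, the serotonin-synthesising enzyme of beta cells in pregnancy, are further members chosen after their values were seen, at 0.88 each. Forkhead letters (TGTTTAC or TGTTTGC) were in 11.8% of Up, 4.45% of Down and 5.29% of uncalled promoters (8.43% of the table). The RFX letters GTTGCCAT were in 6 of 220 Up, 8 of 697 Down and 80 of 8012 uncalled promoters (1.3% of the table).

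Letters of housekeeping promoters were less frequent at Up promoters. The GC box (GGGCGG) was in 53.6% of Up, 63.3% of Down and 68.1% of uncalled promoters (33.1% of the table), and the NRF1 site GCGCATGC in 1.36%, 5.45% and 5.30% (2.47%). E2F letters (TTTCCCGC, TTTGGCGC, TTTCGCGC or TTTGCCGC) were in 1.82%, 4.59% and 4.23% (2.14%). The TATA box (TATAAA), as in the insulin promoters, was in 7.73%, 9.33% and 5.98% (14.2%). CCAAT was in 36.8%, 38.6% and 38.3% (37.5%) and the cyclic AMP element TGACGTCA in 3.18%, 3.73% and 3.47% (1.83%), hardly different between groups. The ETS letters CCGGAAGT were in 6.82%, 6.74% and 8.16% (3.81%), the YY1 letters AAGATGGCG in 2.73%, 3.87% and 3.67% (1.73%), and the MAF letters TGCTGAC in 5.45%, 3.59% and 3.39% (4.44%). The cell cycle letters TTTGAA (CHR) were in 13.6%, 11.9% and 10.7% (18.3%) and GCGCGAAA (CDE-like) in 0.45%, 0.57% and 0.66% (0.33%). CAACAGGTG, an E-box of the SNAI and SCRT factors, was in 0 of 220 Up, 4 of 697 Down and 16 of 8012 uncalled promoters. No test was run on these shares, and a match is a description of the letters only.

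**Figure D5:**
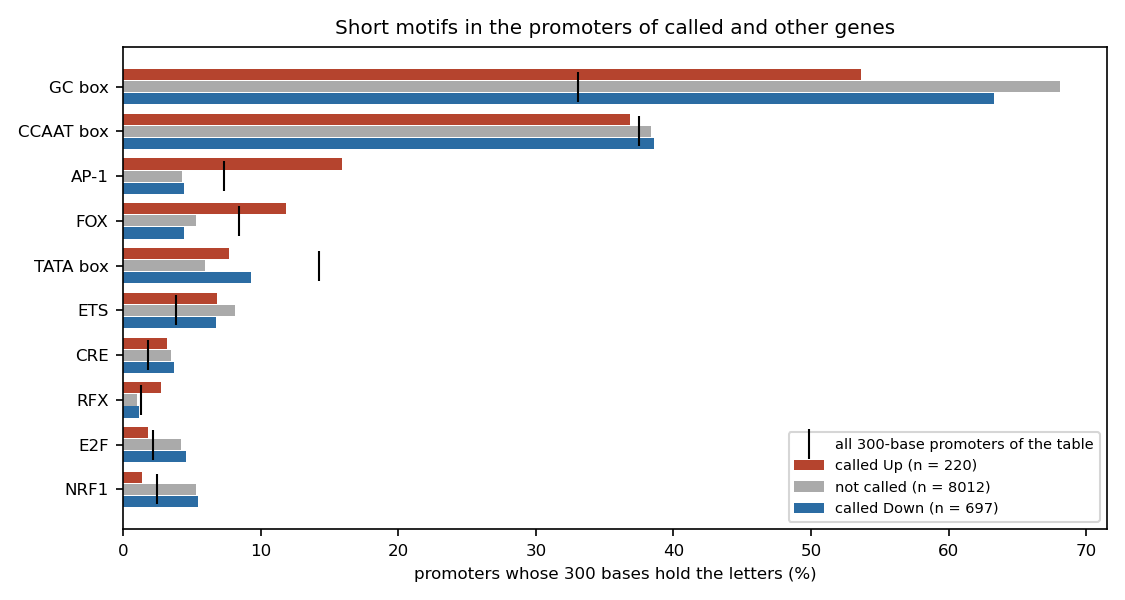
Share of promoters whose 300 bases hold each motif, for promoters called Up (red, n = 220), called Down (blue, n = 697) and not called (grey, n = 8012), with black ticks at the share of all promoter sequences of the table. AP-1 and FOX letters are the ones whose red bar is well above the other 2, and the GC box and NRF1 bars are lower in red.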

How the data were processed

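ATAC-seq integrations were analysed in 3 Adult and 3 P10 islet libraries. Per the study's methods and labels, the authors mapped paired reads to Rn5 (BWA 0.7.13), dropped mitochondrial and poorly mapped reads, ran MACS2 2.1.1 on the joined libraries of each age, merged both peak sets and counted integrations in each. The deposited values are raw counts. Whether PCR duplicates were removed is not given in the sources used here. Peaks called on pooled libraries of each age mean that sites were chosen on these samples. The deposited columns of the authors' own comparison (fold change, mean level, F, p and FDR) were not used.

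Distinct sites were taken once, and TSS-class sites listed with 2 genes were dropped. Gene IDs were matched to RefSeq for 11002 of 11039 sites. Counts of all 101603 sites were scaled by TMM over all sites, with no filter on low counts, and tested with edgeR 4.0.16 (estimateDisp, glmQLFit, glmQLFTest) in R 4.3.3, tested first on simulated data. limma 3.58.1 and DESeq2 1.42.0 were alternatives. Nothing in the labels says that technical spread is excluded, so p-values measure the spread between these libraries. Depth was 7916919 to 21168463 counted integrations per library.

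Named promoters were the 12 Up and 12 Down with the smallest p among non-overlapping called ones with a gene symbol, up to 4 called sites per gene list, up to 3 per direction in the 5 families with the highest Up and Down shares among those with at least 10 sites, and 10 islet and sex genes whatever their values. A few promoters the rule takes are not reported here. Members, lists and families were chosen with earlier results of these data known, and further members were named to complete a count, after values were seen. Some family patterns that caught unrelated symbols were corrected, though Irf2bpl remained among the cytokine genes. List and family counts carry no test. Letters were read from RefSeq (GRCr8).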

Additional observations from a re-analysis of the deposited data

How the results depend on the processing

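The balance of calls depended on the scaling, while no called promoter took the opposite call under any alternative except total reads, where 11 Up sites became Down. With column sums 197 sites were Up and 1904 Down, with a median log2 fold change of -0.20. TMM on promoter sites alone gave 650, 512 and -0.0072. Total reads as library sizes gave 3, 9960 and -0.94. Cyclic loess gave 1979 Down and a median of -0.19. At an adjusted p under 0.05, 111 were Up and 207 Down, and among sites over the gene start 196 were Up. Without 1 library the Up count was 128 to 470 and the Down count 353 to 911. Median-of-ratios factors, DESeq2, limma voom, a filter on low counts, autosomes alone and, both chosen after seeing the data, scaling by chromosome or 10 Mb window gave 250 to 308 Up and 746 to 973 Down. The share of integrations on chromosome X stayed lower in adults without any library, where the smallest possible exact permutation p is 0.2. No paired analysis was possible because the replicate numbers of the Adult and P10 libraries do not overlap.

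Of 119 named promoters, 35 kept their direction and side of the threshold in all 19 alternatives and 19 changed sign in at least 1. Nkx6-1 had -0.085 with column sums, -0.0021 with median-of-ratios factors, -0.055 with cyclic loess, -0.0020 with DESeq2, -0.030 by chromosome, -0.044 by window and -0.15 to 0.092 without a library. Pdx1 had -0.62 to 0.091 without a library, and Pcna had 0.037 by window. With total reads the values were -0.063 for Cacna2d3, -0.073 for Cacng6, -0.23 for Dnajb9, -0.21 for Dusp6, -0.11 for H2afy, -0.65 for Iapp, -0.39 for Ino80c, -0.42 for Mcm6, -0.084 for Mir129-1, -0.21 for Mir759, -0.85 for Nkx6-1, -0.24 for Onecut1, -0.39 for the inner Ppargc1a site, -0.38 for Ppargc1b, -0.16 for Syt4, -0.25 for Tuba8 and -0.31 for Ucn3. Total reads shift all values alike, by construction, and the cause of the other changes was not tested. With a median SE of 0.21, changes much smaller than those called were not detectable at this depth.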
